A study of Mus musculus with 9 samples.

Results

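The 9 genes described here encode the mouse lipopolysaccharide receptor complex and related receptors, and were followed in BaF3 cells that carried 1 of 3 fusion kinases. They were taken by symbol, as Cd14, Ly96, Tlr2, Tlr4, Tlr7, Tlr9, Cd180, Ly86 and Myd88, under a rule that sets no limit on their values. Each was read by the probe set whose platform annotation gave that symbol alone. All 9 were measured, each by 1 such probe set, among 19938 genes in all. BaF3 is a mouse haematopoietic line that depends on interleukin-3. Cells infected with a retrovirus for BCR-RET, FGFR1OP-RET or BCR-ABL (the P210 form, per the design text) and sorted by EGFP fluorescence gave 3 Affymetrix MouseGene 1.0 ST arrays a group. In the first 2 fusions the receptor tyrosine kinase RET is joined to BCR or to FGFR1OP, and the third is the kinase known from chronic myeloid leukaemia. All groups therefore share the line and the type of infection and sort, each with its own retrovirus. Cells without a fusion were not analysed here. No label says that the arrays of a group stem from separate cultures or infections, and p-values here therefore rest on a spread between arrays that may be only technical.

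Toll-like receptors recognise conserved microbial molecules and signal through adaptor proteins to NF-kB and to interferon regulatory factors. For lipopolysaccharide, CD14 passes the ligand to MD-2, the product of Ly96, which is bound to TLR4 at the cell surface. CD180 (RP105) with MD-1, the product of Ly86, is a related pair that lacks a signalling domain of the Toll type. TLR2 recognises bacterial lipoproteins at the surface, TLR7 single-stranded RNA and TLR9 unmethylated CpG DNA inside endosomes. MyD88 is the adaptor that most of these receptors share. Monocytes are known for abundant CD14, and B cells for CD180. The series title links the RET fusions to monocytic differentiation.

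The values are gene-level RMA values on the log2 scale as the authors deposited them. All array medians lay between 8.01 and 8.04. Pairs of arrays of the same group correlated at 0.9929 to 0.9963. Pairs from different groups correlated at 0.9895 to 0.9957, so the ranges overlapped. The 4 markers of the line had high values in all groups. The interleukin-3 receptor gene Il3ra averaged 10.39 in BCR-RET, 10.52 in FGFR1OP-RET and 10.33 in BCR-ABL cells, and the leukocyte gene Ptprc 11.48, 11.84 and 11.68 in the same order. The receptor beta chain genes averaged 12.75, 12.72 and 12.03 for Csf2rb and 12.09, 11.74 and 11.18 for Csf2rb2. Both beta chain genes passed as higher against BCR-ABL with BCR-RET (0.72 and 0.90, limma adjusted p = 0.00819 and 0.00278) and with FGFR1OP-RET (0.69 and 0.56, adjusted p = 0.00649 and 0.0236). Ptprc was lower in BCR-RET than in FGFR1OP-RET (-0.36, adjusted p = 0.0182). Of 8 B-lineage genes, Cd79b averaged 9.87, 9.72 and 9.64, and the other 7 had group means of at most 7.85, below the array medians. The series gave no detection calls here, so absence cannot be read from a low value.

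Of the members, Cd14 passed the test between fusions, Ly96, Myd88 and Cd180 passed between the replicate numbers in the titles, with Cd180 the least stable of these calls, and Tlr2, Tlr4, Tlr7, Tlr9 and Ly86 passed in neither. RefSeq promoters (build GRCm38.p6, from 250 bases before to 50 after the start) were matched by symbol for 5 members, Tlr2, Tlr9, Myd88, Ly86 and Cd180. Those of Cd180 (chr13:102693297-102693596, plus strand, the first of its entries) and Myd88 (chr9:119339969-119340268, minus strand) are shown because both genes passed between replicate numbers. Capitals mark matches to any of 4 motifs searched on both strands, namely GGG and CC parted by any 5 bases for NF-kB, GAAA and GAAA parted by any 2 bases for the interferon-stimulated response element, GAGGAA for the core bound by PU.1 and TTCNNNGAA for STAT factors.
Cd180: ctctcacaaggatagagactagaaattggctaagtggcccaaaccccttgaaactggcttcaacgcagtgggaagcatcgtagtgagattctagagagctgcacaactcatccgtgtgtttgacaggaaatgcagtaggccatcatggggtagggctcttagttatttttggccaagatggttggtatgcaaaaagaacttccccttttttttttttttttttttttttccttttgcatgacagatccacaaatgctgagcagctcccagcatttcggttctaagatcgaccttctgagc
Myd88: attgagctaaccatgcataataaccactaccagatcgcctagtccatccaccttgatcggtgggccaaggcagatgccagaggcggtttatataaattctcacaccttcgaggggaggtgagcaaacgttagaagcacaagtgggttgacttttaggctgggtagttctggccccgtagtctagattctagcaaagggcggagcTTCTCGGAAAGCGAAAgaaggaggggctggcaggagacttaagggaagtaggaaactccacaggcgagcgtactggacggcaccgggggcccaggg
The Cd180 window held no match to these letters. The Myd88 window held a STAT match at position -46 from the start, which overlaps an interferon-stimulated response element match at -40. Among the 5 members, the NF-kB letters were in Tlr2 alone, the PU.1 core in Tlr9 alone and the other motifs in Myd88 alone. Of 32851 promoters of the same length in the table, 50.8% held the NF-kB letters, 3.44% the interferon-stimulated response element, 28.3% the PU.1 core and 8.3% the STAT letters.

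Cd14 (probe set 10458382, chromosome 18), the co-receptor that captures lipopolysaccharide, was higher with FGFR1OP-RET than with either BCR fusion. Its log2 values were 7.18, 7.10 and 7.19 in BCR-RET cells. They were 8.20, 8.81 and 8.08 in FGFR1OP-RET cells. They were 7.40, 7.21 and 7.32 in BCR-ABL cells. All 3 FGFR1OP-RET arrays stood above the other 6, with the array numbered 2 the highest. Of all genes, 6.94% had these arrays above all BCR-ABL arrays and 6.49% above all BCR-RET arrays. The 3 BCR-RET arrays lay just below the 3 BCR-ABL arrays, as they did for 5.9% of all genes.

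Cd14 averaged 8.37 ± 0.39 in FGFR1OP-RET cells against 7.31 ± 0.10 in BCR-ABL cells (SD, n = 3 each), a 2.08-fold rise (log2 difference 1.06, SE 0.16, limma adjusted p = 0.0146). Against FGFR1OP-RET it was lower in BCR-RET cells, at 7.16 ± 0.05 (SD, n = 3; log2 difference -1.21, SE 0.16, limma adjusted p = 0.00775), which makes FGFR1OP-RET 2.31-fold higher. These comparisons share the FGFR1OP-RET arrays. BCR-RET and BCR-ABL, the neighbours in the order of levels, differed by -0.15 with a 95% interval from -0.51 to 0.20 (limma adjusted p = 0.72). Here and below, adjusted p-values are by Benjamini-Hochberg over all genes, and a difference passed where it was under 0.05.

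Cd14 was the 1 member of 9 past that threshold in each comparison with FGFR1OP-RET. Over all genes, 1.02% passed in FGFR1OP-RET against BCR-ABL and 1.33% in BCR-RET against FGFR1OP-RET. In BCR-RET against BCR-ABL, 0 of 9 members passed in limma, none had an unadjusted p under 0.05, and 0.587% of all genes passed. At an unadjusted p under 0.05, 1473 of all 19938 genes were higher and 798 lower. Between arrays of the same number, Cd14 in FGFR1OP-RET exceeded BCR-ABL by 0.80, 1.61 and 0.76 for numbers 1, 2 and 3. The call of FGFR1OP-RET against BCR-ABL was lost without BCR-ABL replicates 1, 2 and 3 (limma adjusted p = 0.0509, 0.0971 and 0.0695), while the log2 difference stayed between 0.83 and 1.20 over the 9 fits that left out 1 array. The call of BCR-RET against FGFR1OP-RET held in all 9 such fits, with a highest limma adjusted p of 0.0474 without BCR-RET replicate 2, and was lost when only those 6 arrays entered the fit (adjusted p = 0.078).

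**Figure D1:**
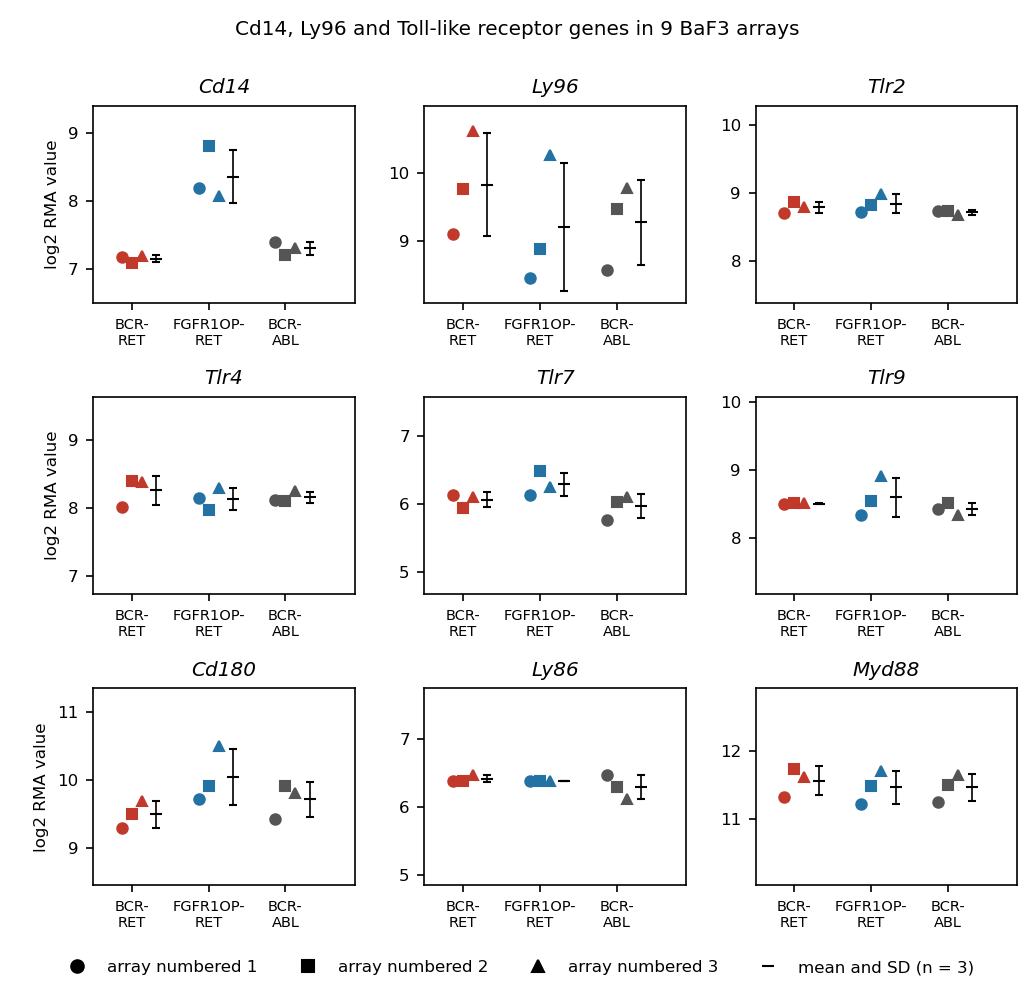
Log2 RMA value (vertical axis, equal span in every panel) of the 9 members in BCR-RET, FGFR1OP-RET and BCR-ABL cells; each symbol is 1 array, its shape the replicate number, and the bar the mean with its SD (n = 3). Cd14 is higher in all 3 FGFR1OP-RET arrays, from 8.08 to 8.81, and Ly96 is lowest on the array numbered 1 of every group.

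Ly96 (probe set 10344966, chromosome 1), which encodes MD-2, spread more widely within groups than any other member. Its values were 9.10, 9.76 and 10.61 in BCR-RET cells. They were 8.46, 8.88 and 10.26 in FGFR1OP-RET cells. They were 8.57, 9.47 and 9.77 in BCR-ABL cells. The groups overlapped, and in each of them the array numbered 1 was the lowest and the array numbered 3 the highest.

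Between the fusions, Ly96 averaged 9.82 ± 0.76 in BCR-RET, 9.20 ± 0.94 in FGFR1OP-RET and 9.27 ± 0.62 in BCR-ABL cells (SD, n = 3 each). None of its differences passed in the main limma fit. The 95% intervals, from a fit without the replicate number, were wide. They ran from -0.60 to 1.70 for BCR-RET minus BCR-ABL and from -1.22 to 1.08 for FGFR1OP-RET minus BCR-ABL. For BCR-RET minus FGFR1OP-RET the interval ran from -0.53 to 1.77. With the replicate number as a block, the SE of BCR-RET minus BCR-ABL fell from 0.51 to 0.15. The difference of 0.55 did not pass there either (limma adjusted p = 0.115). With the same block, BCR-RET minus FGFR1OP-RET was 0.62 (SE 0.15) and passed (limma adjusted p = 0.0449), though the numbers there were not taken as pairs. Among arrays of the same number, BCR-RET was above BCR-ABL by 0.52, 0.29 and 0.84 and above FGFR1OP-RET by 0.63, 0.88 and 0.35 for numbers 1, 2 and 3.

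Tlr4 (probe set 10505517, chromosome 4), the signalling receptor for lipopolysaccharide, had overlapping values in the 3 groups. It read 8.01, 8.39 and 8.37 in BCR-RET cells, 8.14, 7.96 and 8.28 with FGFR1OP-RET and 8.11, 8.10 and 8.24 in BCR-ABL cells. Its 3 differences lay between -0.02 and 0.13, and the interval of FGFR1OP-RET minus BCR-ABL ran from -0.27 to 0.23. The co-receptor Cd14 thus differed between fusions where its partners Tlr4 and Ly96 had no difference past the threshold in the main limma fit. Whether the genes differ from each other in that respect was not tested.

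Cd180 (probe set 10406928, chromosome 13), the surface receptor related to Tlr4, read 9.29, 9.49 and 9.69 in BCR-RET cells. It read 9.71, 9.91 and 10.50 with FGFR1OP-RET and 9.42, 9.91 and 9.81 in BCR-ABL cells. All 3 FGFR1OP-RET arrays were above all 3 BCR-RET arrays, by a narrow margin, and the BCR-ABL arrays overlapped both. BCR-RET minus FGFR1OP-RET was -0.55 (SE 0.20, 95% interval -1.0 to -0.11), which did not pass over all genes (unadjusted p = 0.0206, limma adjusted p = 0.248). Of all genes, 6.49% likewise had all BCR-RET arrays below all FGFR1OP-RET arrays. With the replicate number as a block, the Cd180 difference passed (SE 0.11, limma adjusted p = 0.0194), though the numbers there were not taken as pairs.

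Ly86 (probe set 10404606, chromosome 13), whose product MD-1 pairs with CD180, averaged 6.41 ± 0.05 in BCR-RET and 6.29 ± 0.18 in BCR-ABL cells (SD, n = 3 each). Its value was 6.38 on each of the 3 FGFR1OP-RET arrays, identical to the last digit, and also 6.38 at 2 decimals on 2 BCR-RET arrays. The source of such repeats was not tested, and an SD of 0 from them lowers the spread behind any comparison. No difference of Ly86 passed, and they lay between 0.03 and 0.13.

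Tlr2 (probe set 10498992, chromosome 3) read 8.70, 8.87 and 8.79 in BCR-RET cells, 8.72, 8.82 and 8.99 with FGFR1OP-RET and 8.73, 8.74 and 8.67 in BCR-ABL cells. Its largest difference was 0.13, for FGFR1OP-RET minus BCR-ABL, with a 95% interval from -0.04 to 0.30. The groups overlapped in all 3 comparisons.

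Of the endosomal receptors, Tlr7 (probe set 10607870, chromosome X) read 6.14, 5.94 and 6.11 in BCR-RET cells, 6.14, 6.48 and 6.25 with FGFR1OP-RET and 5.77, 6.03 and 6.11 in BCR-ABL cells. The FGFR1OP-RET arrays lay above all BCR-ABL arrays, which 6.94% of all genes did, and the difference of 0.32 (SE 0.11, 95% interval 0.07 to 0.57) did not pass (unadjusted p = 0.0162, limma adjusted p = 0.341). Tlr9 (probe set 10588479, chromosome 9) averaged 8.51 ± 0.01 in BCR-RET, 8.61 ± 0.29 in FGFR1OP-RET and 8.43 ± 0.09 in BCR-ABL cells (SD, n = 3 each). Its FGFR1OP-RET arrays were the most spread, at 8.35, 8.55 and 8.92, and no difference passed.

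Myd88 (probe set 10597648, chromosome 9), the shared adaptor, read 11.32, 11.73 and 11.62 in BCR-RET cells. It read 11.21, 11.48 and 11.70 with FGFR1OP-RET and 11.25, 11.50 and 11.64 in BCR-ABL cells. The group means, 11.56, 11.46 and 11.47, differed by at most 0.10, and the interval of FGFR1OP-RET minus BCR-ABL ran from -0.34 to 0.33.

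As a list, the 9 members had a median difference of 0.09 in BCR-RET against BCR-ABL, beside 0.03 over all genes. The median was 0.13 in FGFR1OP-RET against BCR-ABL, beside 0.00 over all genes, and -0.06 in BCR-RET against FGFR1OP-RET, beside 0.03.

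**Figure D2:**
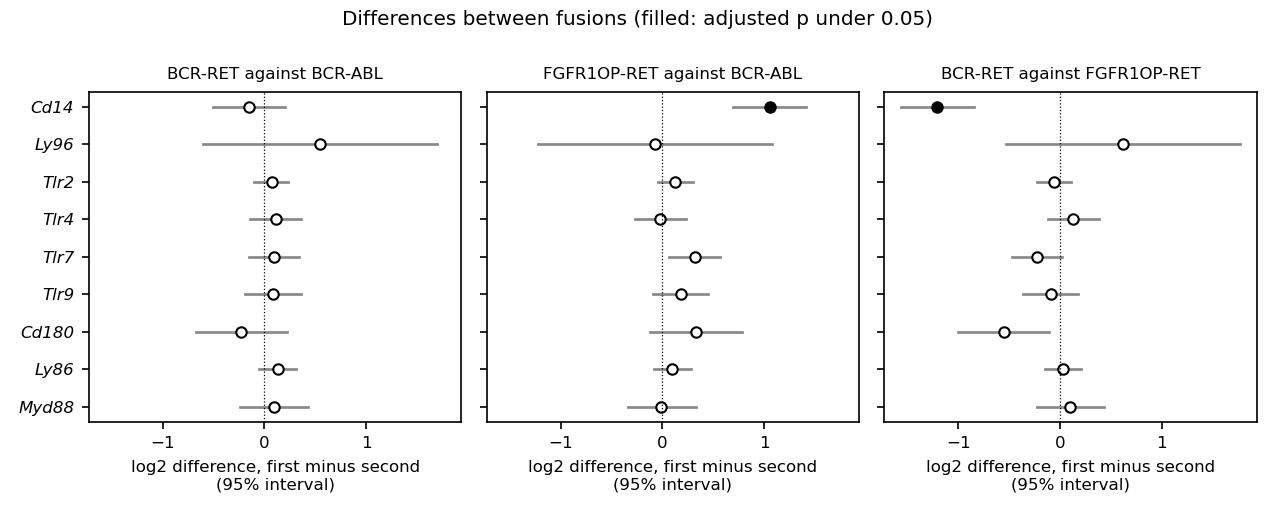
Log2 difference of each member (horizontal axis) with its 95% interval in the 3 comparisons, the first fusion named minus the second; filled points had an adjusted p under 0.05. Cd14 is the filled point in both comparisons with FGFR1OP-RET, at 1.06 and -1.21, and Ly96 has the widest intervals.

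The titles give each group the numbers 1 to 3, without saying what a number marks. In a fit with fusion and number, Ly96 was lower on the arrays numbered 1 than on numbers 2 and 3 by a log2 difference of -1.08 (SE 0.13, limma adjusted p = 0.00346). Those 3 arrays averaged 8.71 against 9.79 for the 6 others, which were 2.12-fold higher. Myd88 was lower by -0.35 (SE 0.06, limma adjusted p = 0.00967), and its arrays numbered 1, from 11.21 to 11.32, lay below the 6 others, from 11.48 to 11.73, as was so for 3.73% of all genes. Cd180 was lower by -0.41 (SE 0.09, limma adjusted p = 0.031).

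These were 3 of the 9 members, and all 3 were lower on number 1. Of all genes, 8.29% passed in this contrast, made up of 5.46% lower and 2.83% higher. The array numbered 1 was the lowest within each of the 3 groups for Ly96, Cd180 and Myd88, as it was for 12.5% of all genes. The array numbered 3 was the highest in each group for Ly96, as for 6.18% of all genes. The call of Ly96 held in all 9 fits that left out 1 array (adjusted p at most 0.046). That of Myd88 was lost without BCR-RET replicate 1 (adjusted p = 0.0954) and FGFR1OP-RET replicate 1 (0.0514). That of Cd180 held in 3 of the 9 such fits. Its adjusted p was 0.137, 0.128 and 0.124 without the array numbered 1 of FGFR1OP-RET, BCR-RET and BCR-ABL, 0.0673 and 0.0575 without BCR-RET replicates 2 and 3, and 0.0567 without BCR-ABL replicate 2.

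The deviations from the group means show the pattern by array. For Ly96 they were -0.73, -0.74 and -0.70 on the arrays numbered 1 of BCR-RET, FGFR1OP-RET and BCR-ABL, and 0.79, 1.06 and 0.50 on those numbered 3. For Cd14 the deviation of 0.45 on the FGFR1OP-RET array numbered 2 was not shared by the other arrays of that number, at -0.06 and -0.10. Of the sum of squares of Cd14 over the 9 arrays, 88.6% lay between fusions and 1.6% between numbers within fusions. For Ly96 the shares were 15.9% and 77.5%, for Myd88 6.04% and 84.1% and for Cd180 46.1% and 40.6%, beside medians over all genes of 31.2% and 25%. In a test of any difference among the 3 numbers, added after seeing the data, Ly96 and Myd88 passed (limma adjusted p = 0.00437 and 0.0231) and Cd180 did not (0.0561), where 4.45% of all genes passed.

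**Figure D3:**
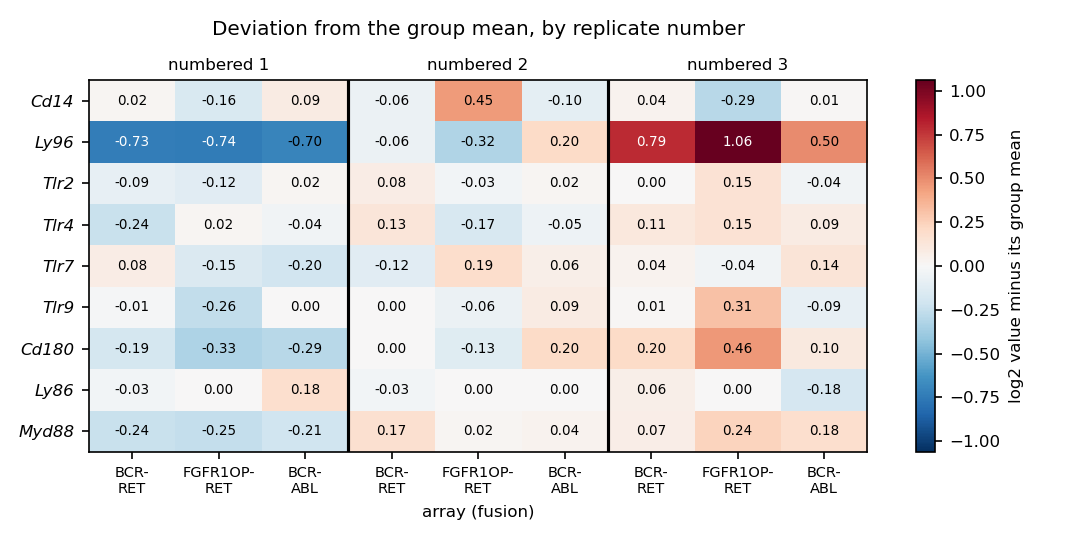
Log2 value minus its group mean for each member (rows) on each array (columns, ordered by replicate number and then by fusion); red is above and blue below the group mean. Ly96 runs from -0.74 on an array numbered 1 to 1.06 on an array numbered 3, and Cd14 departs most on the FGFR1OP-RET array numbered 2, at 0.45.

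Within groups, the deviations of Ly96 and Cd180 had a Pearson correlation of 0.96 over the 9 arrays, those of Ly96 and Myd88 0.86, and those of Cd180 and Myd88 0.84. Cd14 had -0.35, -0.42 and -0.17 with the same 3 genes, in the order Ly96, Cd180 and Myd88. The 9 points share libraries and group means, so these values only describe the arrays.

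Markers of granulocytes and of mast cells and basophils moved with the number too. The arrays numbered 1 were lower in Mcpt8 (-1.10, limma adjusted p = 0.00138), Cpa3 (-0.66, adjusted p = 0.0151), Mpo (-0.64, adjusted p = 0.00198) and Prtn3 (-0.24, adjusted p = 0.0164). The first 2 genes encode proteases of basophils and mast cells and the others encode enzymes of primary granules. They were 2 of 5 mast cell and basophil genes and 2 of 8 granulocyte genes. The macrophage gene Adgre1 (-0.31, adjusted p = 0.0391) was 1 of 10 monocyte and macrophage genes. Of all genes, 5.46% passed as lower in this contrast. Their part in the number pattern of Ly96, Cd180 and Myd88 was not tested.

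The genes whose values over the 9 arrays were most like Cd14 were Plaur (Pearson r = 0.99), Mpeg1 (0.98), Ccdc80 (0.98), Cep43 (0.97) and Slfn4 (0.97). Plaur encodes the urokinase receptor and Mpeg1 a perforin-like protein of macrophages. Plaur averaged 10.62 ± 0.27 in FGFR1OP-RET cells against 9.83 ± 0.04 in BCR-ABL cells (SD, n = 3 each), and Mpeg1 8.58 ± 0.33 against 7.57 ± 0.10. Like Cd14, both peaked on the FGFR1OP-RET array numbered 2, at 10.89 and 8.96. Both genes were picked by their correlation with Cd14 over these same 9 arrays, so a like pattern follows from that choice. Cep43, the current symbol of the mouse gene Fgfr1op, moved over a far smaller range, with means of 10.13 in BCR-RET, 10.23 in FGFR1OP-RET and 10.16 in BCR-ABL cells and no difference past the threshold. For Ly96, a list added after seeing its values was led by Ggact (r = 0.99) and Il2rb (0.98), which encodes a receptor chain for interleukin-2 and interleukin-15.

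Among monocyte and macrophage markers, 2 of 10 measured genes rose with FGFR1OP-RET against BCR-ABL, namely Mpeg1 (log2 difference 1.01, limma adjusted p = 0.0106) and the Fc receptor gene Fcgr1 (0.57, adjusted p = 0.0351). Of all genes, 0.787% passed as higher in this comparison. The median of the list was 0.12. The list's mean log2 value per array ran from 8.54 to 8.61 in BCR-RET, from 8.66 to 8.91 in FGFR1OP-RET and from 8.40 to 8.43 in BCR-ABL cells. Csf1r, a receptor gene in this list, averaged 7.18 ± 0.09, 7.09 ± 0.05 and 7.07 ± 0.08 in the same order (SD, n = 3 each). These means lay below the array medians. In the granulocyte list 3 of 8 genes rose in the same comparison, Mpo (1.55), Prtn3 (1.27) and S100a9 (0.96). The part of these markers in the Cd14 result was not tested, and in bulk RNA more cells of a type and more RNA per cell cannot be told apart.

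The other Toll-like receptor genes measured were Tlr1, Tlr3, Tlr6, Tlr8, Tlr12 and Tlr13. None passed in the main limma fit in any comparison between fusions. The count at an unadjusted p under 0.05 was 0 in BCR-RET against BCR-ABL and 1 in each of the other comparisons, Tlr13 in both. Tlr13, an endosomal receptor for bacterial ribosomal RNA in mice, read 7.61, 7.40 and 7.42 in BCR-RET cells, 7.79, 8.42 and 8.15 with FGFR1OP-RET and 7.56, 7.79 and 7.65 in BCR-ABL cells. Its difference was -0.65 (SE 0.14) for BCR-RET minus FGFR1OP-RET (limma adjusted p = 0.0649) and 0.46 for FGFR1OP-RET minus BCR-ABL (0.262). Without FGFR1OP-RET replicate 1 both passed (adjusted p = 0.0146 and 0.0397), and with the block the first did (0.0176), though the numbers there were not taken as pairs. Of the 12 alternatives other than leaving out 1 array, the block among them, the first passed in 5 and the second in 0. The remaining 5 genes had differences between -0.15 and 0.15. Tlr6 read exactly the same, 6.98, on each of the 3 FGFR1OP-RET arrays. Its sequence is close to that of Tlr1, and whether their probes take up each other's transcript was not tested.

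Of 70 other genes listed for the pathway, 63 were measured, those 6 receptors included. The other lists were receptor helpers (9 measured), adaptors, kinases and interferon regulatory factors (20), negative regulators (11) and response genes (17). In FGFR1OP-RET against BCR-ABL 4 of the 63 rose and none fell, beside 0.787% of all genes higher and 0.231% lower. In BCR-RET against FGFR1OP-RET 3 were higher and 4 lower, beside 0.476% and 0.853%. In BCR-RET against BCR-ABL 2 rose and none fell, beside 0.371% and 0.216%. The medians of the 63 differences were 0.06, 0.00 and 0.04 in that order.

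The receptor helpers included Lbp, which delivers lipopolysaccharide to CD14, the co-receptor gene Cd36 and Unc93b1, which carries receptors to endosomes. No receptor helper passed in the main limma fit. At an unadjusted p under 0.05, 1 was higher and 1 lower in FGFR1OP-RET against BCR-ABL, beside 1097 and 846 of all 19938 genes. In BCR-RET against FGFR1OP-RET the counts were 1 and 2, beside 1669 and 1295. In BCR-RET against BCR-ABL the count was 0, beside 1473 higher and 798 lower. With the block, Unc93b1 passed in both comparisons with FGFR1OP-RET (0.38 against BCR-ABL, limma adjusted p = 0.0343, and -0.47 for BCR-RET minus FGFR1OP-RET, adjusted p = 0.01), where again the numbers were not taken as pairs.

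Among signalling genes, Irf7, an interferon regulatory factor that acts downstream of TLR7 and TLR9 through MyD88, was highest with FGFR1OP-RET. It averaged 8.45 ± 0.24 in BCR-RET, 9.16 ± 0.11 in FGFR1OP-RET and 7.91 ± 0.15 in BCR-ABL cells (SD, n = 3 each). FGFR1OP-RET rose 2.38-fold against BCR-ABL (log2 difference 1.25, SE 0.12, limma adjusted p = 0.00216), and BCR-RET was lower than FGFR1OP-RET by -0.71 (SE 0.12, adjusted p = 0.026). The second call was lost in 5 fits, with an adjusted p of 0.063 without BCR-RET replicate 1 and 0.0715 without replicate 3, 0.0742 without FGFR1OP-RET replicate 1 and 0.108 without replicate 2, and 0.0558 without BCR-ABL replicate 3. Pik3ap1, an adaptor that links these receptors to phosphoinositide 3-kinase, averaged 10.35 ± 0.05 in BCR-RET, 10.78 ± 0.07 in FGFR1OP-RET and 10.37 ± 0.04 in BCR-ABL cells (SD, n = 3 each). It rose in FGFR1OP-RET against BCR-ABL by 0.40 (SE 0.05, limma adjusted p = 0.00784) and was lower in BCR-RET than in FGFR1OP-RET by -0.42 (SE 0.05, adjusted p = 0.00645). Its arrays, like those of Cd14, placed FGFR1OP-RET above both other fusions without overlap. Of all genes, 6.94% had all FGFR1OP-RET arrays above all BCR-ABL arrays and 6.49% had them above all BCR-RET arrays. The share with both was not counted.

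Of the negative regulators, Socs1 passed in BCR-RET against FGFR1OP-RET, at 9.67 ± 0.06 against 9.30 ± 0.11 (SD, n = 3 each; log2 difference 0.37, limma adjusted p = 0.0494). That call was lost in each of the 9 fits that left out 1 array (adjusted p from 0.0576 without BCR-ABL replicate 3 to 0.156 without BCR-RET replicate 2). Against BCR-ABL no negative regulator passed in the main limma fit. At an unadjusted p under 0.05 there, 3 of the 11 were higher with BCR-RET and 2 with FGFR1OP-RET. Of all 19938 genes, 1473 were higher at that level with BCR-RET and 1097 with FGFR1OP-RET. With the block, Nfkbia passed in BCR-RET against BCR-ABL (0.60, limma adjusted p = 0.0104) and Irak3 in FGFR1OP-RET against BCR-ABL (0.41, adjusted p = 0.0138), where the numbers were not taken as pairs.

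The response genes are cytokines, enzymes and regulators that Toll-like receptor signals are known to induce. Of 17 measured, 2 rose in BCR-RET against BCR-ABL, 2 rose in FGFR1OP-RET against BCR-ABL, and 2 were higher and 2 lower in BCR-RET against FGFR1OP-RET. Differences above 0 were seen for 15 and 13 of the 17 in the first 2 comparisons, which share the BCR-ABL arrays. Of all 19938 genes, 12104 and 10122 were above 0 in the same comparisons. Il6 and the chemokine gene Cxcl10 were highest with BCR-RET. Il6 read 10.83, 10.79 and 11.05 in BCR-RET cells, 9.98, 9.67 and 9.80 with FGFR1OP-RET and 9.75, 9.92 and 9.78 in BCR-ABL cells. Its BCR-RET arrays stood above the other 6, by 1.07 against each of the other fusions (SE 0.10, limma adjusted p = 0.00153 against BCR-ABL and 0.0018 against FGFR1OP-RET). The share of all genes with BCR-RET arrays so placed was not counted. Cxcl10 averaged 8.86 ± 0.25 in BCR-RET, 8.08 ± 0.03 in FGFR1OP-RET and 7.70 ± 0.05 in BCR-ABL cells (SD, n = 3 each). It was higher in BCR-RET than in BCR-ABL by 1.16 (limma adjusted p = 0.00153) and than in FGFR1OP-RET by 0.78 (adjusted p = 0.00863; 0.0501 without FGFR1OP-RET replicate 2).

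The chemokine genes Ccl3 and Cxcl2 were highest with FGFR1OP-RET. Ccl3 read 9.08, 9.15 and 10.05 in BCR-RET cells, 10.45, 11.06 and 10.88 with FGFR1OP-RET and 9.47, 9.54 and 9.60 in BCR-ABL cells. Its FGFR1OP-RET arrays stood above the rest. Of all genes, 6.94% had them above all BCR-ABL arrays and 6.49% above all BCR-RET arrays. The Ccl3 difference was 1.26 against BCR-ABL (limma adjusted p = 0.0464), and BCR-RET was lower than FGFR1OP-RET by -1.37 (adjusted p = 0.0322). The first of these calls held in 3 and the second in 2 of the 9 fits that left out 1 array, with a highest adjusted p of 0.208 and 0.122, both without FGFR1OP-RET replicate 2. Cxcl2 averaged 7.03 ± 0.20 in FGFR1OP-RET against 6.44 ± 0.07 in BCR-ABL cells (SD, n = 3 each; 0.59, limma adjusted p = 0.0292) and held in 3 of the 9. For Cxcl2, BCR-RET minus FGFR1OP-RET was -0.50 and did not pass (limma adjusted p = 0.0512). Acod1, whose enzyme makes itaconate in macrophages, was lower in BCR-RET than in FGFR1OP-RET by -0.39 (limma adjusted p = 0.0278). The Acod1 call held in 2 of the 9, with a highest adjusted p of 0.112 without BCR-RET replicate 3.

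For BCR-RET against BCR-ABL the replicate numbers were taken as pairs, as their deviations correlated with r of 0.617, 0.155 and 0.367. No label says that the numbers pair the arrays. With the number as a block, 4 of the 63 pathway genes rose in place of 2, the added genes being Irf7 (0.54, limma adjusted p = 0.004) and Nfkbia (0.60, adjusted p = 0.0104), which encodes an inhibitor of NF-kB. The members' count stayed at 0, and Ly96 had an adjusted p of 0.115.

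**Figure D4:**
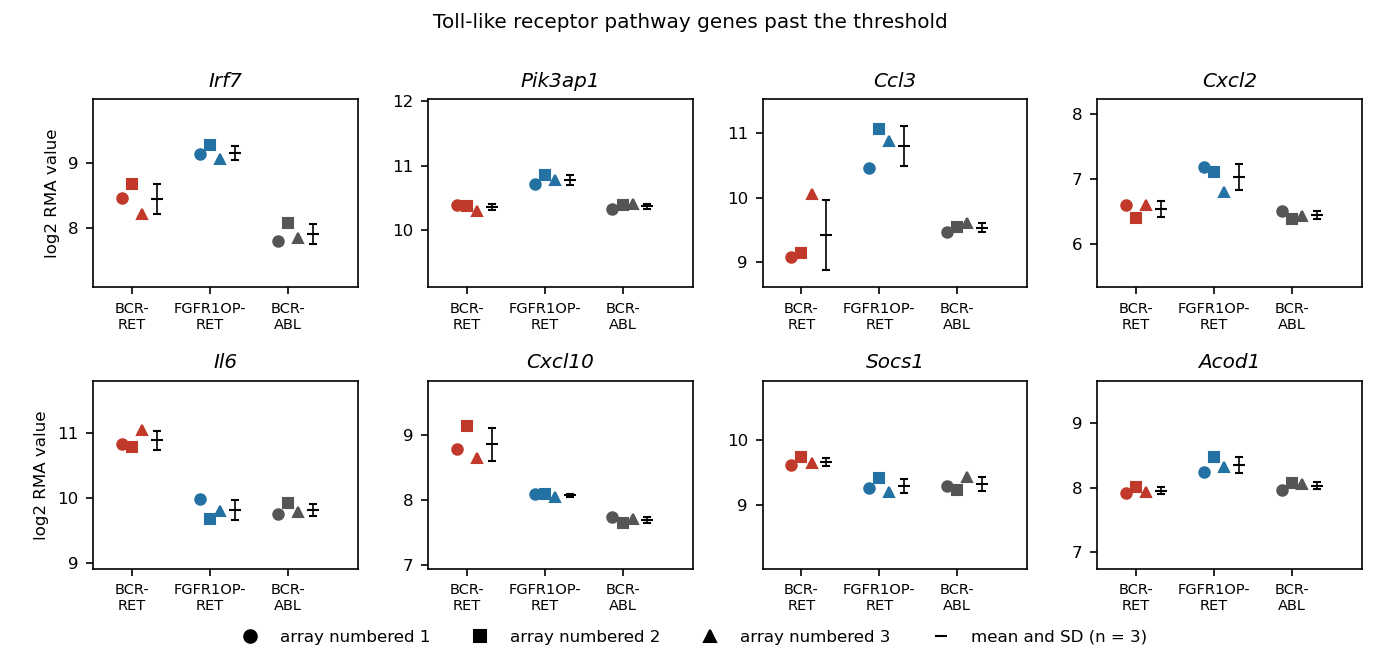
Log2 RMA value (vertical axis, equal span in every panel) of the 8 pathway genes past the threshold in a comparison between fusions; symbols and bars are as for the members. FGFR1OP-RET arrays are highest for Irf7, Pik3ap1, Ccl3, Cxcl2 and Acod1, and BCR-RET arrays for Il6, Cxcl10 and Socs1.

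Between replicate numbers, none of the 8 pathway genes named above passed. The arrays numbered 1 were higher in Zc3h12a (0.41), Tnfaip3 (0.37), Ticam2 (0.35), Tnf (0.29) and Irf3 (0.27) and lower in Tab3 (-0.30), 6 of the 63 genes (limma adjusted p from 0.00423 to 0.0353). Without regard to direction, that share is near the 8.29% of all genes that passed in this contrast. By direction, 5 of the 63 were higher and 1 lower, beside 2.83% and 5.46% of all genes. Whether the 63 differ from all genes in direction was not tested. Zc3h12a and Tnfaip3 encode brakes on this signalling and Ticam2 the adaptor that couples TLR4 to interferon induction.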

How the data were processed

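Gene expression was measured in 9 samples of infected and sorted BaF3 cells, 3 a group, on Affymetrix MouseGene 1.0 ST arrays. The values are those the authors deposited, on the log2 scale and summarised per probe set by RMA with Affymetrix Expression Console, per the labels and the submitters' processing notes. RMA gives all arrays a like distribution, which would hide a shift shared by most transcripts. The sources used here give no software version, annotation or genome build. Scanner intensities were not used, and the number of arrays limits the precision.

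Of 35557 probe sets, 21789 had 1 symbol in the platform annotation, 1621 several and 12147 none. The probe set with the highest 9-array mean was kept per gene, leaving 19938 genes. Groups and numbers came from the sample titles. All genes were fitted with limma 3.58.1 (lmFit, eBayes; R 4.3.3), in a model of group means, or with group and number for the contrast of numbers, and adjusted by Benjamini-Hochberg over all genes, with a threshold of 0.05. The script was tested on simulated data. SE is the moderated standard error of a log2 difference.

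The named genes are the 9 members, the other Toll-like receptors, pathway genes past the threshold (at most 8 a list and comparison) and the 5 genes most like a member past the threshold. Nfkbia, Irak3, the receptor helpers, the line and lineage markers, the genes given for the replicate number and those like Ly96 were named after their values were seen. Members and lists were chosen with earlier results of these data known. Deviations from group means of arrays with the same number correlated across genes with r of 0.617, 0.155 and 0.367 between BCR-RET and BCR-ABL, all above 0.1, so these numbers were taken as pairs. For number 2 the correlation was -0.128 between FGFR1OP-RET and BCR-ABL and -0.152 between BCR-RET and FGFR1OP-RET, so those were not. The contrast of numbers nonetheless fits a common shift per number for all 3 groups. Alternatives were fits without each array, with the number as a fixed or random block, with other scaling, filters, features and variance models, and on the arrays compared alone.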

Additional observations from a re-analysis of the deposited data

Results flagged for a closer look

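The effects of the RET fusions against BCR-ABL differed from each other, by the direct test of BCR-RET against FGFR1OP-RET in limma, for 1 member and 7 pathway genes. The difference for Cd14 was -1.21 (adjusted p = 0.00775), and every BCR-RET array was below and every FGFR1OP-RET array above the BCR-ABL arrays. Of all genes, 5.9% had the first placement and 6.94% the second. For Cd14, BCR-RET minus BCR-ABL was -0.15 and did not pass (limma adjusted p = 0.72). The difference between the RET fusions was also seen in pathway genes. It was -1.37 for Ccl3 (adjusted p = 0.0322), -0.71 for Irf7 (0.026), -0.42 for Pik3ap1 (0.00645) and -0.39 for Acod1 (0.0278). It was 1.07 for Il6 (adjusted p = 0.0018), 0.78 for Cxcl10 (0.00863) and 0.37 for Socs1 (0.0494). Over the 9 fits that left out 1 array, these calls held in 0 for Socs1 and in 2 each for Ccl3 and Acod1. They held in 4 for Irf7, in 8 for Cxcl10 and in all 9 for Il6 and Pik3ap1. The effects against BCR-ABL share the BCR-ABL arrays. Groups of 3 arrays are too small for a test of single arrays that stand apart.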

How the results depend on the processing

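No difference past the threshold, as reported or in an alternative, changed sign among the members and named genes. Members without a call could change sign near 0, as Cd14 did between replicate numbers (-0.11 to 0.11). Leaving out 1 array at a time, members past the threshold numbered 0 in BCR-RET against BCR-ABL in every fit, 0 to 1 in FGFR1OP-RET against BCR-ABL, 1 in BCR-RET against FGFR1OP-RET and 1 to 3 between replicate numbers. Pathway genes numbered 2 to 3 in BCR-RET against BCR-ABL, 2 to 5 in FGFR1OP-RET against BCR-ABL and 2 to 7 in BCR-RET against FGFR1OP-RET. In FGFR1OP-RET against BCR-ABL, Cd14 no longer passed with all probe sets tested or with only the 2 groups compared (0 members, adjusted p = 0.0599 and 0.0869), and pathway genes numbered 2 with all probe sets. In BCR-RET against FGFR1OP-RET, the 2 groups alone gave 0 members and 1 pathway gene, all probe sets 3 pathway genes and a second quantile normalization 11. Between replicate numbers, members numbered 1 with all probe sets, 0 with the FGFR1OP-RET and BCR-ABL arrays alone and 1 with the BCR-RET and FGFR1OP-RET arrays alone. Leaving out all arrays of a number, chosen after seeing the data, gave 0 members in both comparisons with FGFR1OP-RET for each number, while the Cd14 difference stayed at 0.78 to 1.21 against BCR-ABL and at -1.37 to -0.96 for BCR-RET minus FGFR1OP-RET. Without numbers 1, 2 and 3, pathway genes numbered 1, 0 and 0 in BCR-RET against BCR-ABL, 0 each in FGFR1OP-RET against BCR-ABL and 2, 0 and 0 in BCR-RET against FGFR1OP-RET. These fits have 6 arrays. The cause of the other changes was not tested.

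With the replicate number as a block, pathway genes numbered 4 in BCR-RET against BCR-ABL, 10 in FGFR1OP-RET against BCR-ABL and 12 in BCR-RET against FGFR1OP-RET, and as a random block 4, 6 and 11. In the last comparison the block gave 3 members, adding Ly96 (0.62, limma adjusted p = 0.0449) and Cd180 (-0.55, 0.0194), though the numbers there were not taken as pairs. Over all genes, the calls with and without the block were 362 and 117 in BCR-RET against BCR-ABL, 576 and 203 in FGFR1OP-RET against BCR-ABL and 1135 and 265 in BCR-RET against FGFR1OP-RET. Tlr7 and Ly86 were among the dimmest 25% of genes and were not tested when these were left out. The same held for Cxcl2, Tlr1, Tlr3, Tlr8 and Tlr12. Scanner signal over background was not analysed here.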
